A study of Danio rerio with 12 samples.

Results

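The genes of cholesterol and fatty acid synthesis were examined in entire zebrafish larvae (Danio rerio, AB strain) exposed to tritiated water and in control larvae. They were chosen by name, from a list of 47 genes matched to the gene names of the count tables without regard to case and, where absent, without a final a or b. Of these names 37 matched exactly, 7 matched by the shortened name and 3 (cyp51, fads2 and thrsp) did not match. The 44 matched names stand for 46 of the 32057 genes counted, 25 on the sterol arm and 21 on the fatty acid arm, because some names, such as SQLE, ACLY and DGAT1, are each carried by a pair of gene IDs. All 46 passed the filter on low counts, among 23075 genes tested. CYP51A1, the human name of the lanosterol demethylase that cyp51 encodes, is given beside the sterol arm and is not counted in it.

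Cholesterol is built from acetyl-CoA through mevalonate, farnesyl diphosphate and squalene, and the genes for these steps are known from mammals to be driven together by the transcription factor srebf2. SCAP escorts that factor out of the endoplasmic reticulum and insig1 holds it back when sterols are plentiful. Fatty acids are built from the same acetyl-CoA, which ACLY makes in the cytosol, ACACA carboxylates and FASN lengthens, before desaturases and elongases shape the chain and acyltransferases join it to glycerol. Liver and intestine are main sites of lipid handling, the yolk syncytial layer is the tissue that exports yolk lipid to the larva, and myelinating glia are known for a high demand for sterols.

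The study measured messenger RNA in 4 groups of 3 biological replicates. Exposed larvae (called HTO, for tritiated water) received 0.4 mGy/h and controls none, and both were taken at 7 or at 10 days post fertilization (dpf). In all groups eggs were gathered 3 h after fertilization, and the rearing water, at 28 °C, held sea salt at 60 mg/L. HTO dishes had an incubator within a glove box and control dishes another one elsewhere in that room, so exposure and incubator cannot be told apart. The labels do not say whether replicates came from separate clutches or how many larvae were pooled, so p-values measure the spread between these libraries.

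Libraries held 19.4 M to 67.3 M reads on genes (M, 1e6). Markers of liver, intestine and myelin were present, as an entire larva should have. Of the list named for the yolk syncytial layer 5 genes were tested, while vtg1, vtg2 and vtg5 had at most 5 reads in any library. Whether those 5 genes stand for that tissue at these ages was not tested. HTO replicate 1 at 10 dpf stood apart: its highest correlation with any other library across genes was 0.9787, against 0.9887 to 0.9928 for the other 11 libraries, and its 12 liver markers summed to 887 CPM (counts per 1e6 reads on genes) against 1990 and 2640 in the other replicates of its group. Its 13 intestine markers summed to 905 CPM against 2300 and 2630, and its 5 yolk syncytial layer markers to 1930 CPM against 4240 and 4940. In bulk RNA fewer cells of a tissue and less RNA per cell cannot be told apart. This library was also the lowest of all 12 in 17 of the 25 sterol genes and in 8 of the 21 fatty acid genes. How often it was lowest over all genes was not counted, so these counts do not set either arm apart from other genes. The part of these tissues in the results was not tested. Several counts and medians of both arms that this library moved by over 1.5 times are also given without it. Over all genes at 10 dpf, 615 of 23461 were called higher in HTO larvae and 918 lower without it, against 1101 and 1620 of 23075 with it. At 7 dpf 114 were called higher and 145 lower without it, against 41 and 78 with it.

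The sterol arm was higher at 7 than at 10 dpf in control larvae, while the fatty acid arm showed genes moving both ways. As the mean log2 CPM of its 25 genes relative to the mean of the 12 libraries, the sterol arm stood at 0.39, 0.08 and 0.19 in the control replicates at 7 dpf and at -0.07, -0.07 and -0.24 in those at 10 dpf. All 3 younger control libraries lay above all 3 older ones. In HTO larvae the sterol arm stood at -0.02, 0.13 and 0.17 at 7 dpf and at -0.53, -0.16 and 0.12 at 10 dpf, so the ages overlapped there. The fatty acid arm stayed between -0.05 and 0.13 in 11 libraries and was at -0.26 in HTO replicate 1 at 10 dpf. Subtracting the fatty acid arm from the sterol arm within each library gave values above 0 in 6 of 6 libraries at 7 dpf, from 0.03 to 0.26, and values below 0 in 5 of 6 at 10 dpf. The exception was HTO replicate 3 at 10 dpf, at 0.05. These arm levels are a description without a test.

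**Figure D1:**
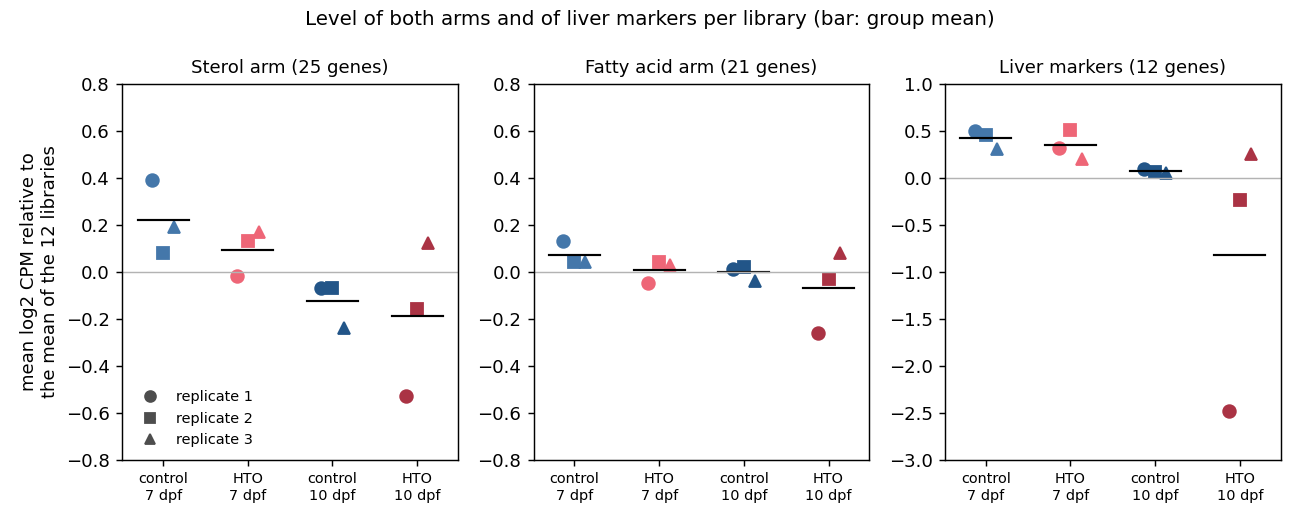
Mean log2 CPM of the 25 sterol genes, the 21 fatty acid genes and the 12 liver markers in each library, relative to the mean of the 12 libraries (y axis), by group (x axis); symbols are replicates, bars are group means, and the liver panel has its own scale. Control libraries at 7 dpf (0.08 to 0.39) lie above those at 10 dpf (-0.24 to -0.07) in the sterol panel, and HTO replicate 1 at 10 dpf is lowest in all 3 panels (-0.53, -0.26 and -2.48).

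Spread between replicates was also wider on the sterol arm than on the fatty acid arm in every group. It was wider than over all genes except in HTO larvae at 7 dpf. Genes with fewer reads vary more in CPM, and the part of read number in this spread was not tested. The median coefficient of variation over its 25 genes was 14.1% in controls and 8.66% in HTO larvae at 7 dpf, and 10.5% and 21.7% at 10 dpf. Fatty acid genes had medians of 9.15%, 5.99%, 5.42% and 10.3% in the same order, and all tested genes 10.1%, 9.56%, 9.44% and 11.2%. Without HTO replicate 1 at 10 dpf, an alternative chosen after seeing the data that leaves 2 libraries in the group, the medians of HTO larvae at 10 dpf were 12.3% for sterol genes, 6.15% for fatty acid genes and 6.88% for all genes. By library, control replicate 1 at 7 dpf was the highest of the 12 libraries in 14 of 25 sterol genes, where HTO replicate 1 at 10 dpf was the lowest in 17. Neither was counted over all genes. The heat map of single genes shows both libraries as a column.

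**Figure D2:**
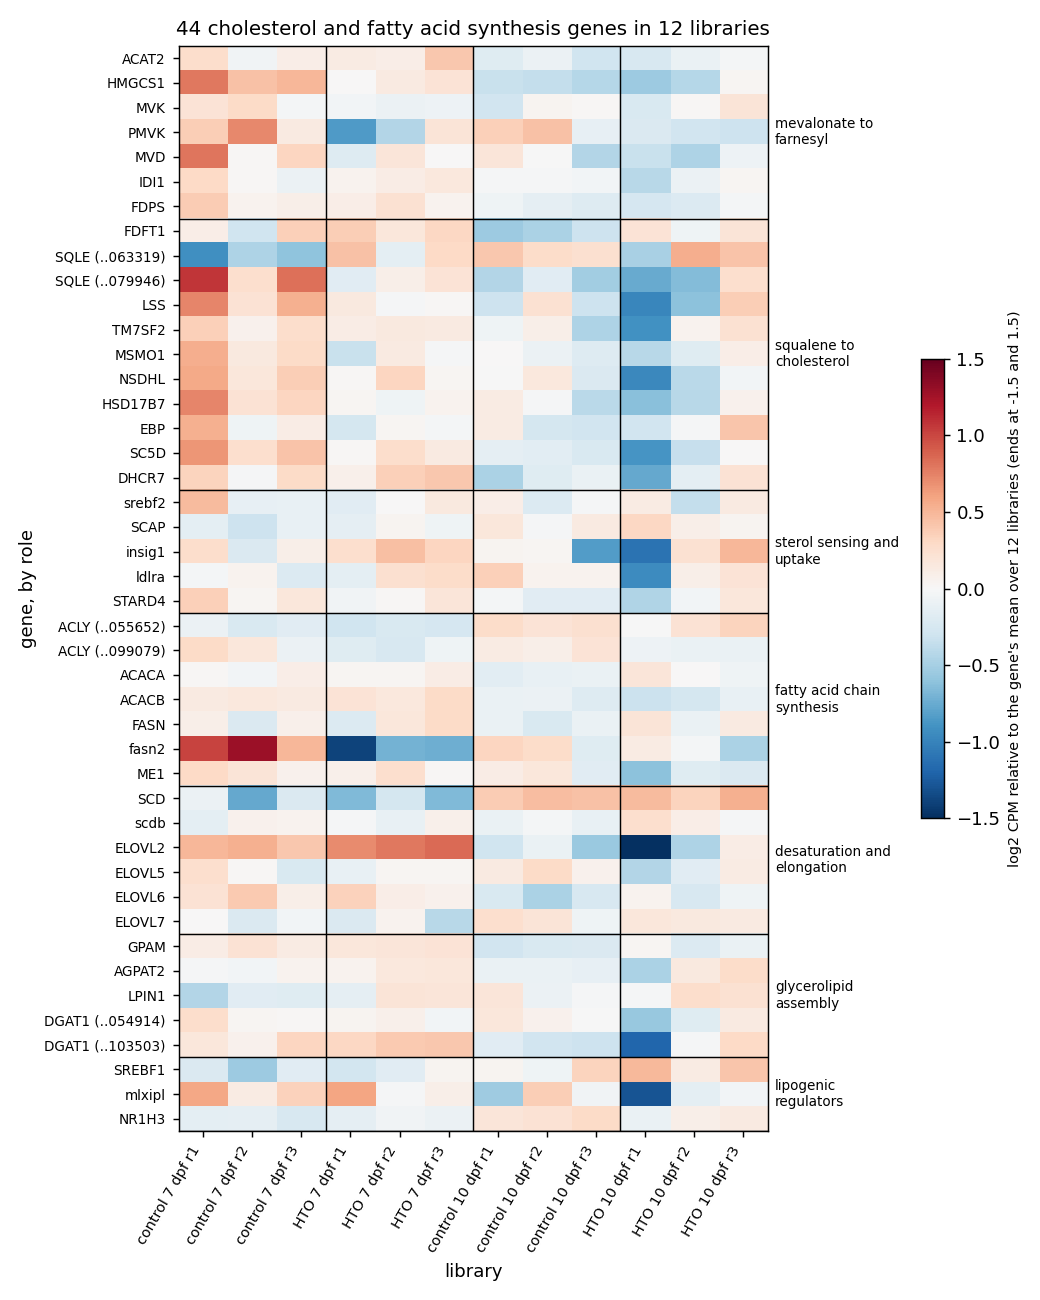
Log2 CPM of 44 of the 46 genes (y axis, by role) in each of the 12 libraries (x axis) relative to the mean of that gene over all libraries; red is higher, blue is lower, and the colour scale ends at -1.5 and 1.5. The first column is red in most sterol rows, and the column of HTO replicate 1 at 10 dpf is blue in most of them.

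At 7 dpf 1 gene of fatty acid synthesis was called lower in HTO than in control larvae, and no gene of the sterol arm was called. fasn2 (ENSDARG00000096762), a paralog of the fatty acid synthase gene FASN, stood at 11.3, 13.7 and 7.91 CPM in control replicates 1 to 3 and at 2.15, 3.44 and 3.37 CPM in HTO larvae. Every control library was above every exposed one. The log2 fold change was -1.89 (SE 0.25, edgeR quasi-likelihood test, adjusted p = 0.00871), which is 0.269 of the control level. Summed liver markers ranged over 2840 to 3240 CPM in controls and 2720 to 3340 CPM in HTO larvae at this age, and intestine markers over 2610 to 2880 and 2460 to 2880 CPM, so both overlapped. Without control replicate 1 at 7 dpf the adjusted p of fasn2 was 0.0502. FASN itself (ENSDARG00000087657), the main fatty acid synthase, had 68.8 ± 7.96 CPM in controls and 74.4 ± 12.5 CPM in HTO larvae (SD, n = 3 libraries each) with a log2 fold change of 0.11 (SE 0.12).

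Thus 1 of 21 fatty acid genes was lower and 0 were higher at 7 dpf, where 0.338% of all tested genes were lower and 0.178% higher. The median log2 fold change of the 21 genes was -0.01, the same as over all genes. In 4 of 21 all HTO libraries lay above all controls and in 2 below, against 1880 and 1985 of 23075 over all genes. Without control replicate 3 at 7 dpf, 649 of 23488 genes were lower over all genes, against 78 of 23075 in the main fit. In that fit 2 genes of the arm were called lower, fasn2 and ACLY (ENSDARG00000099079), the enzyme that makes cytosolic acetyl-CoA from citrate. That gene had 129, 119 and 99.4 CPM in controls and 93.0, 89.6 and 101 CPM in HTO larvae, a log2 fold change of -0.29 (SE 0.09, edgeR adjusted p = 0.172). Only control replicate 3 lay within the exposed range. LPIN1 (ENSDARG00000020239), the phosphatidate phosphatase of glycerolipid assembly, had 492, 590 and 588 CPM in controls and 609, 763 and 756 CPM in HTO larvae (0.35, SE 0.12, edgeR adjusted p = 0.226), without overlap.

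On the sterol arm edgeR called 0 of 25 genes at 7 dpf, and DESeq2 also called 0. At an unadjusted p under 0.05, 1 gene was higher and 5 were lower, or 20% of the arm against 7.28% of all genes for the lower direction. The median log2 fold change was -0.11 over the 25 genes and -0.24 over the 20 enzymes among them, against -0.01 over all genes. Over the 25 genes it ranged from -0.19 without HTO replicate 3 to -0.05 without control replicate 1 at 7 dpf, and was -0.18 and -0.17 without control replicates 2 and 3. In 1 of 25 genes all 3 HTO libraries lay above all 3 controls, against 1880 of 23075 over all genes. In 6 of 25 genes (24%) all 3 HTO libraries lay below all 3 controls, against 8.60% of all tested genes. These 6 were HMGCS1, SQLE (ENSDARG00000079946), MSMO1, HSD17B7, LSS and MVK, of which HMGCS1 had the smallest p. Some of them nearly touched: the nearest libraries were 3.41 CPM in HTO and 3.42 CPM in control larvae for MVK, and 7.88 and 7.96 CPM for MSMO1. For HMGCS1 they were 29.3 and 34.6 CPM.

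HMGCS1 (ENSDARG00000103025), the synthase that makes HMG-CoA, had 44.1, 34.6 and 36.0 CPM in control and 25.6, 27.9 and 29.3 CPM in HTO replicates at 7 dpf (-0.47, SE 0.13, edgeR adjusted p = 0.137). SQLE (ENSDARG00000079946), a squalene epoxidase, had 5.76, 3.27 and 4.85 CPM against 2.44, 2.91 and 3.17 CPM (-0.73, SE 0.25, adjusted p = 0.252 by edgeR). In both genes control replicate 1 was the highest library. The other SQLE gene (ENSDARG00000063319) went the opposite way, with 0.352, 0.485 and 0.438 CPM in controls and 0.904, 0.6 and 0.818 CPM in HTO larvae (0.88, SE 0.30, edgeR adjusted p = 0.236). None of these passed the test across all genes. MSMO1 and HSD17B7, enzymes of sterol demethylation, had log2 fold changes of -0.40 and -0.45, LSS, the lanosterol synthase, -0.46, and MVK, the mevalonate kinase, -0.23. PMVK, the next kinase of that route, had the most negative value of the arm (-0.82, SE 0.29), from levels of 0.346 to 1.03 CPM in these libraries that overlapped between the groups.

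The regulators showed smaller differences at 7 dpf. srebf2 had 25.7 ± 6.43 CPM in controls and 23.9 ± 2.63 CPM in HTO larvae (SD, n = 3 each), SCAP 16.3 ± 1.14 and 17.9 ± 1.04 CPM, and insig1 11 ± 1.84 and 13.4 ± 0.969 CPM. The receptor for cholesterol-rich lipoproteins, ldlra, had 165 ± 15.5 and 189 ± 28.7 CPM, and the sterol carrier STARD4 12.7 ± 1.42 and 11.5 ± 0.969 CPM. Their log2 fold changes ran from -0.16 to 0.28. On the fatty acid side SREBF1, which drives lipogenic genes in mammals, had a value of 0.16 (SE 0.14), the carbohydrate-responsive factor mlxipl -0.12 (SE 0.32) and the oxysterol receptor NR1H3 0.09 (SE 0.07).

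**Figure D3:**
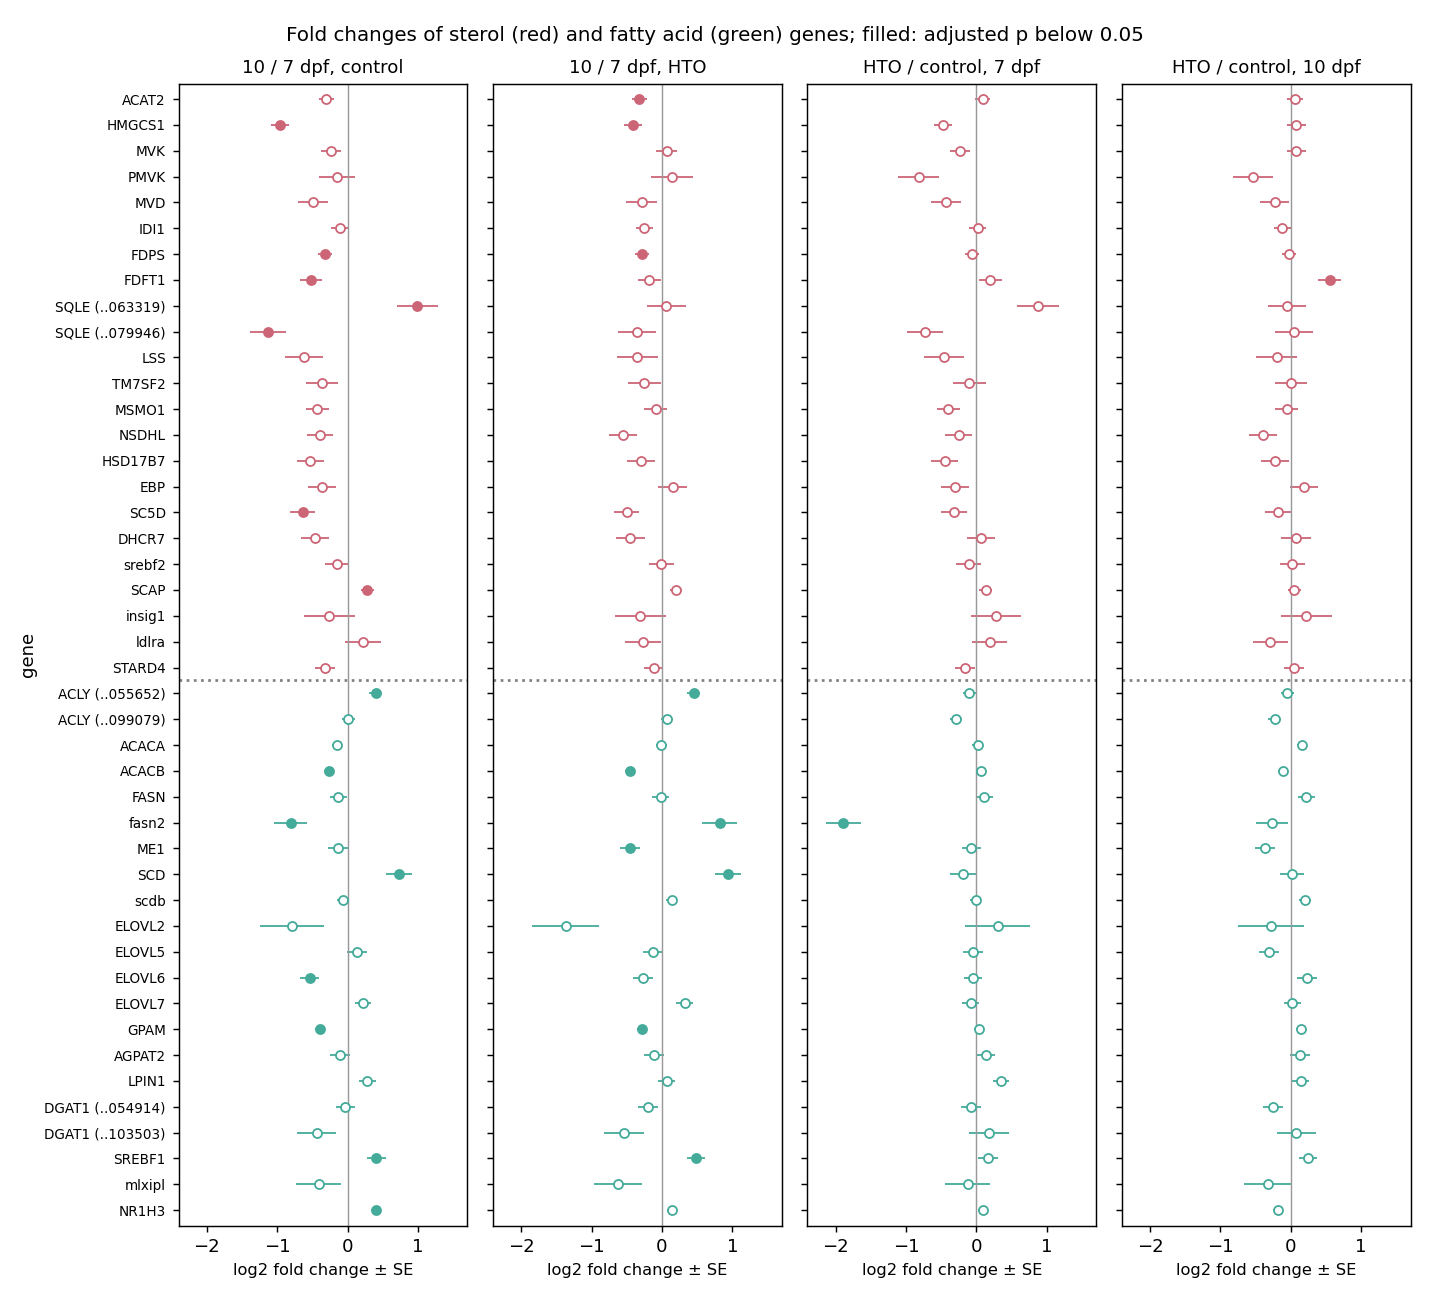
Log2 fold change ± SE (x axis) of 44 of the 46 genes (y axis) in 4 comparisons, sterol genes in red above the dotted line and fatty acid genes in green below it; filled circles passed edgeR's adjusted p of 0.05. Filled circles are frequent in both panels of age, where sterol genes sit mostly left of 0, and 1 stands in each panel of exposure, fasn2 at 7 dpf (-1.89) and FDFT1 at 10 dpf (0.55).

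At 10 dpf the only called gene was FDFT1 (ENSDARG00000101062), squalene synthase, which makes the committed step toward sterols. It rose from 2.33, 2.44 and 2.72 CPM in control replicates to 3.90, 3.24 and 3.86 CPM in HTO larvae. All exposed libraries were above all controls, including HTO replicate 1. The log2 fold change was 0.55 (SE 0.16, edgeR adjusted p = 0.0428). This call lay close to the threshold: leaving out any 1 of control replicates 1, 2 and 3 or HTO replicates 1 and 3 at 10 dpf gave adjusted p from 0.0603 to 0.138, and it was also lost without HTO replicate 1 or 3 at 7 dpf. Summed myelin markers ranged over 322 to 343 CPM in HTO and 287 to 298 CPM in control larvae at this age, and 3 of 10 were called higher in HTO larvae (among them cldnk). The call of cldnk was lost without control replicate 1 or 2 or HTO replicate 1 or 3 at 10 dpf, and without control replicate 2 or HTO replicate 3 at 7 dpf. Of the myelin markers 9 of 10 had a log2 fold change above 0, against 11406 of 23075 over all genes. Below 0 were 11 of 12 liver, 11 of 13 intestine and 5 of 5 yolk syncytial layer markers, against 11669 over all genes. Summed liver markers were 887, 1990 and 2640 CPM in HTO replicates 1 to 3, against 2220 to 2370 CPM in controls. Intestine markers were 905, 2300 and 2630 CPM against 2220 to 2380 CPM, so HTO replicate 3 was above every control in both lists. Yolk syncytial layer markers had 1930, 4240 and 4940 CPM against 4990 to 5190 CPM. Of these other lists 1 intestine marker was called higher and 1 yolk syncytial layer marker lower. The latter call was lost without control replicate 1 or 2 or HTO replicate 1 at 10 dpf. The part of any of these lists in the FDFT1 value was not tested.

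So 1 of 25 sterol genes (4%) was higher and 0 were lower at 10 dpf, where 4.77% of all tested genes were higher and 7.02% lower. The median log2 fold change of the sterol arm was 0.01 against 0 over all genes, and its sign depended on single libraries, with 0.06 without HTO replicate 1, -0.15 without HTO replicate 3, -0.01 without HTO replicate 2 and -0.02 without control replicate 3 at 10 dpf. On the fatty acid arm edgeR and DESeq2 both called 0 of 21 genes, and at an unadjusted p under 0.05, 2 genes were higher and 4 lower (9.52% and 19% of the arm, against 13.4% and 15.1% of all genes). Leaving out HTO replicate 1 at 10 dpf, also an alternative chosen after seeing the data, gave 2 higher and 1 lower (9.52% and 4.76%, against 10.3% and 11.7% of all genes), and on the sterol arm 3 higher (12%) and 0 lower in place of 1 and 0. The fatty acid median was 0.02, and -0.10 without HTO replicate 3, -0.01 without HTO replicate 2 and -0.05 without control replicate 3 at 10 dpf. With all 12 libraries, 1 of 25 sterol and 0 of 21 fatty acid genes were thus called. Whether shares from counts this small differ from those of all genes was not tested.

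Fatty acid calls at 10 dpf appeared when single libraries were left out. Without HTO replicate 1 at 10 dpf, AGPAT2 and DGAT1 (ENSDARG00000103503), acyltransferases of glycerolipid assembly, were called higher, 2 of 21 genes where 2.62% of all genes in that fit were higher. AGPAT2 had 56.6, 56.8 and 55.7 CPM in controls and 43.7, 67.2 and 73.4 CPM in HTO larvae, and this DGAT1 gene 23.8, 21.9 and 21.5 CPM against 11.7, 26.5 and 32.8 CPM. In both, HTO replicate 1 lay below all controls and the other exposed replicates above them. Without HTO replicate 3, DGAT1 (ENSDARG00000054914) was called lower, and without control replicate 3 at 7 dpf, ACLY (ENSDARG00000099079) was. Over all genes 1201 of 23502 and 1910 of 23488 were lower in those fits. That ACLY gene had 115, 112 and 122 CPM in controls and 100, 98.5 and 98.7 CPM in HTO larvae at 10 dpf (-0.23, SE 0.09, edgeR adjusted p = 0.104), without overlap. The malic enzyme ME1, a source of NADPH for lipid synthesis, had 6.05, 6.30 and 4.96 CPM against 3.64, 4.92 and 4.81 CPM (-0.37, SE 0.14, edgeR adjusted p = 0.102), also without overlap. In 3 of 21 genes of the arm all HTO libraries lay below all controls at 10 dpf. In 4 they lay above, namely FASN, ACACA, scdb and GPAM. Over all genes 4256 of 23075 lay below and 3545 above. Low values in HTO replicate 1 widened the spread of several genes, among them the elongase of polyunsaturated fatty acids ELOVL2 at 4.75 CPM against 19.0 and 28.2 CPM in the other exposed replicates, and ldlra at 89.8 against 183 and 198 CPM.

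The difference between the exposure effects at both ages was called for 0 of 46 genes by edgeR, where 0.104% of all genes were called higher and 0.165% lower. At an unadjusted p under 0.05, 2 genes were higher and 2 lower (4.35% each, against 5.96% and 5.33% of all genes). For fasn2 the effect at 10 dpf exceeded that at 7 dpf by 1.62 on the log2 scale (SE 0.34, edgeR adjusted p = 0.0878). DESeq2 called this difference, as did edgeR without control replicate 3 at 7 dpf. At 10 dpf fasn2 had 6.99, 6.81 and 4.93 CPM in controls and 6.09, 5.5 and 4.04 CPM in HTO larvae (-0.27, SE 0.23, edgeR adjusted p = 0.483), with overlap. The median difference was 0.14 for the sterol arm and 0.05 for the fatty acid arm, against 0 for all genes, and neither kept its sign when single libraries were left out. The sterol median was 0.26 without HTO replicate 1 at 10 dpf, -0.03 without HTO replicate 3 at 10 dpf, 0.01 without control replicate 1 at 7 dpf, 0.06 without HTO replicate 1 at 7 dpf, 0.23 without control replicate 2 at 7 dpf and otherwise 0.10 to 0.20. The fatty acid median was -0.02 without HTO replicate 3 at 10 dpf and 0 to 0.05 in the other fits.

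With age, sterol synthesis genes of control larvae mostly had lower levels at 10 than at 7 dpf. Of the 25 genes, 6 fell (24%) and 2 rose (8%), where 15.0% of all tested genes fell and 14.3% rose. The log2 fold change was below 0 in 22 of 25, with a median of -0.36 against -0.01 over all genes. In 13 of 25 (52%) all 3 libraries at 10 dpf lay below all 3 at 7 dpf, against 23.6% of all genes. In 2 of 25 all 3 lay above, against 5194 of 23075 over all genes. HMGCS1 fell from 44.1, 34.6 and 36.0 CPM to 20.2, 19.8 and 18.9 CPM (-0.96, SE 0.13, edgeR adjusted p = 0.000168). SQLE (ENSDARG00000079946) fell from 5.76, 3.27 and 4.85 to 2.02, 2.44 and 1.91 CPM (-1.13, SE 0.26, edgeR adjusted p = 0.0051). In neither gene did the ages overlap.

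The other falls were smaller. SC5D, a sterol desaturase of the last steps, fell by 0.64 on the log2 scale from 6.24 ± 0.881 to 4.02 ± 0.135 CPM (SD, n = 3 each), and FDFT1 by 0.52 from 3.56 ± 0.790 to 2.5 ± 0.203 CPM. FDPS, which makes farnesyl diphosphate, fell by 0.32. CYP51A1 (ENSDARG00000042641) fell from 36.2, 22.6 and 32.3 to 12.8, 14.3 and 14.0 CPM (-1.15, SE 0.34, edgeR adjusted p = 0.0291).

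The genes that rose with age were the other SQLE gene (ENSDARG00000063319), from 0.352, 0.485 and 0.438 to 0.881, 0.805 and 0.787 CPM (0.99, SE 0.29, edgeR adjusted p = 0.0211), and SCAP, from 16.3 ± 1.14 to 19.8 ± 1.37 CPM (0.28, SD with n = 3 each). The SQLE genes thus moved in opposite directions in the same libraries. By role, 3 of 9 genes from acetyl-CoA to farnesyl diphosphate fell, and 3 of 11 from squalene synthase to cholesterol fell while 1 rose. Of the 5 genes of sterol sensing and uptake 1 rose, with srebf2 (-0.15), insig1 (-0.26), ldlra (0.22) and STARD4 (-0.32) not called. Enzymes that were not called included LSS (-0.62) and IDI1, the isomerase before FDPS (-0.11).

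The number of sterol genes called with age in controls depended on the libraries fitted. With the 6 control libraries fitted alone it was 14 of 25, 12 lower and 2 higher, where 16.4% of all genes in that fit were lower and 15.3% higher. Without HTO replicate 1 at 10 dpf, which is in neither group, it was 15, with 13 lower and 2 higher, where 17.3% of all genes in that fit were lower and 16.3% higher. The median was -0.23 without control replicate 1 at 7 dpf. The count of calls was 2 without control replicate 1 at 7 dpf, where HMGCS1 and SQLE (ENSDARG00000079946) were called. It was 5 without control replicate 1 or replicate 2 at 10 dpf. Over all genes these 3 fits had, in this order, 3109 of 23133, 2569 of 23112 and 2694 of 23124 lower. They had 3159, 2475 and 2574 higher. Calls lost without 1 library included those of SC5D (control replicate 1 at 7 dpf), SQLE (ENSDARG00000063319; control replicate 1 at either age), FDPS (replicate 1 at 7 dpf, 2 or 3 at 10 dpf), FDFT1 (replicate 1 or 3 at 7 dpf, 1 or 2 at 10 dpf) and SCAP (replicate 1 or 2 at 7 dpf, 1 or 3 at 10 dpf, or HTO replicate 3 at 7 dpf).

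Summed markers of liver, intestine and myelin were lower in every control library at 10 dpf than in any at 7 dpf. Among single markers edgeR called 0% of liver, 15.4% of intestine and 60% of myelin markers lower, against 15.0% of all genes. In 41.7%, 69.2% and 90%, in this order, all libraries at 10 dpf lay below all at 7 dpf, against 23.6% of all genes. Summed liver markers went from 2840 to 3240 CPM over the control libraries at 7 dpf to 2220 to 2370 CPM at 10 dpf, with 0 of 12 called by edgeR, 0 higher and 1 lower at an unadjusted p under 0.05, and 1 called lower by DESeq2. Intestine markers went from 2610 to 2880 to 2220 to 2380 CPM with 2 of 13 called lower, and myelin markers from 349 to 390 to 287 to 298 CPM with 6 of 10 called lower, of which mag was lost without control replicate 1 at 10 dpf and mbpb without control replicate 2 at 7 dpf or 3 at 10 dpf. The yolk syncytial layer list overlapped between ages, at 4900 to 6450 and 4990 to 5190 CPM, with 1 of 5 called lower and 1 higher; the call of apoeb was lost without control replicate 2 or 3 at 7 dpf or 1 or 2 at 10 dpf. The yolk genes vtg1, vtg2 and vtg5 had at most 5 reads in any library and were not tested. The part of these lists in the age change of sterol genes was not tested.

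**Figure D4:**
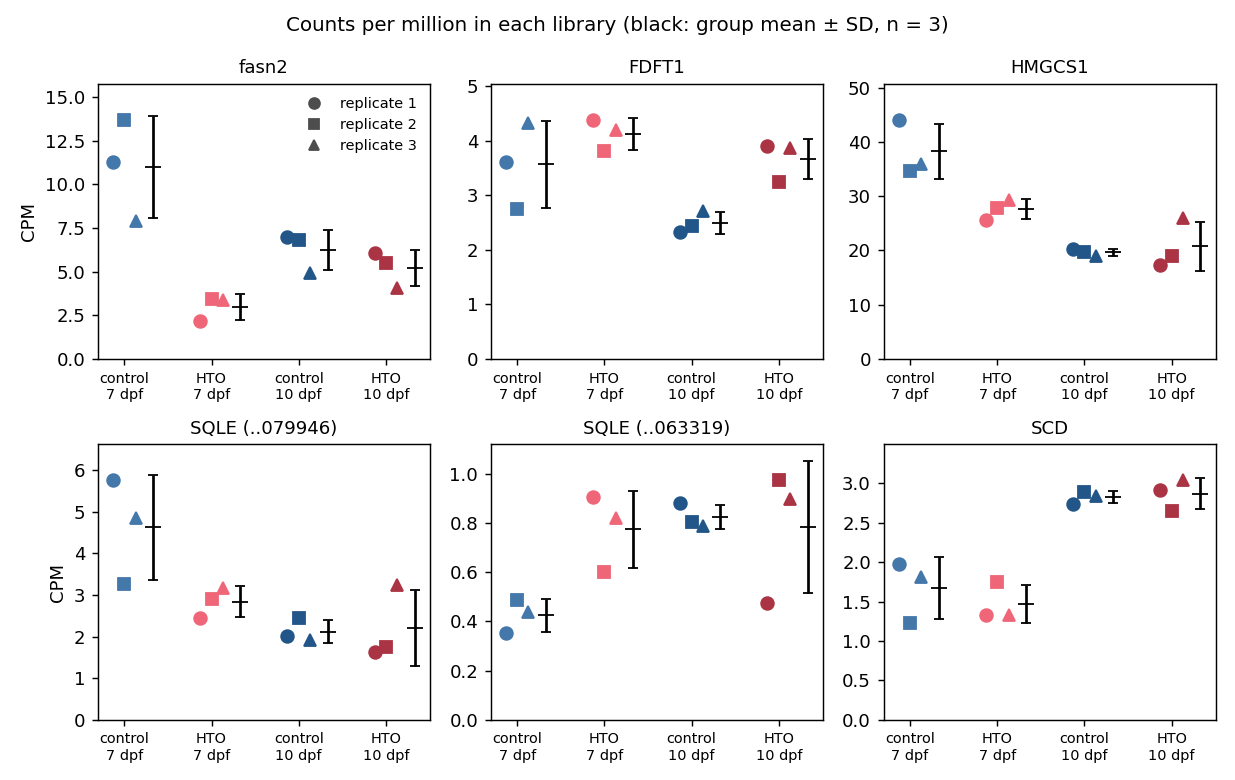
CPM (y axis) of fasn2, FDFT1, HMGCS1, both SQLE genes and SCD in each library by group (x axis), with the group mean ± SD (n = 3) in black. fasn2 in HTO larvae at 7 dpf (2.15 to 3.44 CPM) lies below every other library, and HMGCS1 is at 34.6 to 44.1 CPM in controls at 7 dpf against 18.9 to 20.2 CPM at 10 dpf.

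On the fatty acid arm 4 of 21 genes rose (19%) and 4 fell (19%) with age in controls, near the 14.3% and 15.0% of all genes, with a median log2 fold change of -0.11 (-0.06 without control replicate 3 at 10 dpf). SCD (ENSDARG00000033662), a stearoyl-CoA desaturase, rose from 1.98, 1.23 and 1.81 to 2.74, 2.89 and 2.84 CPM (0.73, SE 0.18, edgeR adjusted p = 0.0073). ACLY (ENSDARG00000055652) rose from 14.2, 12.9 and 13.4 to 18.3, 17.4 and 17.8 CPM (0.40, SE 0.09, edgeR adjusted p = 0.00396). In both, the ages did not overlap.

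Of the 3 regulators of lipogenesis 2 rose. NR1H3, the oxysterol receptor, went from 62.7, 63.0 and 58.5 to 78.5, 80.3 and 84.9 CPM (0.40, SE 0.07, edgeR adjusted p = 0.00114). SREBF1 went from 30.3, 24.2 and 31.4 to 36.3, 33.6 and 44.4 CPM (0.41, SE 0.13, edgeR adjusted p = 0.0353), a call lost without control replicate 2 at 7 dpf or replicates 1 or 3 at 10 dpf. The remaining regulator, mlxipl, was not called, with 0.938, 0.679 and 0.794 CPM at 7 dpf and 0.431, 0.805 and 0.605 CPM at 10 dpf (-0.41, SE 0.32). Among the falls were GPAM, which starts glycerolipid assembly, from 38.3 ± 1.55 to 29.1 ± 0.851 CPM (-0.39), and ELOVL6, the elongase of saturated chains, from 4.71 ± 0.501 to 3.23 ± 0.311 CPM (-0.54). ACACB, an acetyl-CoA carboxylase known in mammals for restraining fatty acid oxidation, went from 155 ± 1.28 to 128 ± 5.64 CPM (-0.27; SD, n = 3 each).

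fasn2 fell in controls with age (-0.81, SE 0.23, edgeR adjusted p = 0.0188), a call lost without control replicate 1 or 2 at 7 dpf or control replicate 3 at 10 dpf. The enzymes ACACA and FASN, which carry the core of chain synthesis, were not called (-0.15 and -0.13). In 8 of 21 fatty acid genes (38.1%) all control libraries at 10 dpf lay below all those at 7 dpf, against 23.6% of all genes. In 5 of 21 all lay above, against 5194 of 23075 over all genes. Without HTO replicate 1 at 10 dpf 10 genes of the arm were called, ELOVL2 and DGAT1 (ENSDARG00000103503) in addition, both lower. In that fit 16.3% of all genes were higher and 17.3% lower.

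In HTO larvae the age change of sterol genes had the same sign at the median (-0.27, against 0.01 over all genes). That median ranged from -0.36 to -0.14 over the fits that leave out 1 library, while the count of calls depended on the libraries fitted. Of 25 genes 4 fell (16%) and 0 rose, where 12.4% of all genes fell and 10.8% rose. These included HMGCS1, from 25.6, 27.9 and 29.3 to 17.4, 19.0 and 25.9 CPM (-0.41, SE 0.13, edgeR adjusted p = 0.0418), FDPS (-0.29) and the thiolase ACAT2 (-0.32), which joins acetyl-CoA units. HMGCS1 overlapped between the ages through HTO replicate 3 at 10 dpf. In 6 of 25 genes (24%) all libraries at 10 dpf lay below all those at 7 dpf, against 20.2% of all genes. In 1 of 25 all lay above, against 4476 of 23075 over all genes. The count of calls was 0 without HTO replicate 2 or 3 at 7 dpf, HTO replicate 1 or 2 at 10 dpf or control replicate 1 at 10 dpf. It was 1 without HTO replicate 1 at 7 dpf or control replicate 2 or 3 at 10 dpf, and 8 without HTO replicate 3 at 10 dpf. Each of the 4 calls was lost in at least 1 of these fits. Over all genes the fits with 0 or 1 sterol call had 2025 to 2799 genes lower, and the fit with 8 had 2757 of 23502. The main fit had 2853 of 23075 lower. Without HTO replicate 1 at 10 dpf the median was -0.14. The difference between the age changes of both groups was called for 0 of 25 sterol genes by edgeR and by DESeq2, with 1 higher and 1 lower at an unadjusted p under 0.05. Summed liver markers ranged over 2720 to 3340 CPM in HTO larvae at 7 dpf and 887 to 2640 CPM at 10 dpf, with 1 of 12 called lower, and myelin markers over 350 to 387 and 322 to 343 CPM, with 3 of 10 called lower. The liver call, tfa, was lost without control replicate 1 or any 1 HTO library at 7 dpf, or any 1 control library or HTO replicate 2 at 10 dpf. Of the myelin calls, cldnk was lost without any 1 HTO library at 7 dpf or HTO replicate 2 at 10 dpf, and mbpb without HTO replicate 1 or 2 at either age. Intestine markers ranged over 2460 to 2880 and 905 to 2630 CPM, with 2 of 13 called lower, of which ANPEP held without any 1 library and CDH17 was lost without any 1 HTO library at 7 dpf. Yolk syncytial layer markers ranged over 5350 to 6120 and 1930 to 4940 CPM without overlap, with 2 of 5 called lower and 1 higher, of which apoeb was lost without HTO replicate 1 or 3 at 7 dpf or 2 or 3 at 10 dpf. The part of these markers in the age change was not tested.

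On the fatty acid arm of HTO larvae 4 of 21 genes rose with age (19%) and 3 fell (14.3%), where 10.8% of all genes rose and 12.4% fell. The median was -0.02, and -0.13 without HTO replicate 1 at 7 dpf or 0.01 without HTO replicate 3 at 7 dpf or 2 at 10 dpf. SCD rose from 1.33, 1.75 and 1.33 to 2.92, 2.65 and 3.04 CPM (0.94, SE 0.18, edgeR adjusted p = 0.00232), and ACLY (ENSDARG00000055652) from 12.3, 12.9 and 12.7 to 15.1, 17.5 and 19.0 CPM (0.45, SE 0.09, edgeR adjusted p = 0.00258). ACACB fell from 161, 156 and 170 to 112, 116 and 129 CPM (-0.45, SE 0.07, edgeR adjusted p = 0.000547). None of the 3 overlapped between ages.

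SREBF1 also rose (0.48, SE 0.13, edgeR adjusted p = 0.0202) and GPAM and ME1 fell (-0.28 and -0.45). fasn2 rose in HTO larvae, from 2.15, 3.44 and 3.37 to 6.09, 5.5 and 4.04 CPM (0.82, SE 0.25, edgeR adjusted p = 0.0318), without overlap. These 4 calls were each lost without some libraries: SREBF1 without HTO replicate 1 or 2 at 7 dpf or 1 at 10 dpf, GPAM without HTO replicate 2 at either age, ME1 without any 1 HTO library at 7 dpf or replicate 1 at 10 dpf, and fasn2 without HTO replicate 1 or 3 at 7 dpf or 1 or 2 at 10 dpf. Without HTO replicate 1 at 7 dpf 4 genes of the arm were called, 2 higher and 2 lower. In that fit 1748 of 23144 genes were higher and 2025 lower. In 7 of 21 genes (33.3%) all HTO libraries at 10 dpf lay below all those at 7 dpf, against 20.2% of all genes. In 5 of 21 all lay above, against 4476 of 23075 over all genes. Both age comparisons and both exposure comparisons share their groups, so their values are set side by side only: NR1H3 had 0.40 in controls and 0.14 (SE 0.07) in HTO larvae, ELOVL6 -0.54 and -0.27, and ELOVL2 -0.79 and -1.37 with SE of 0.46 and 0.47.

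No comparison called 12 of the 21 fatty acid and 16 of the 25 sterol genes. Among the fatty acid genes, scdb, a stearoyl-CoA desaturase, ranged from 87.6 to 115 CPM over the 12 libraries, ACACA from 41.8 to 52.9, FASN from 59.2 to 84.5, ELOVL5, an elongase of polyunsaturated chains, from 9.10 to 15 and ELOVL7 from 9.66 to 15.3 CPM. LPIN1 ranged from 492 to 802 CPM and mlxipl from 0.254 to 0.943 CPM. Sterol genes without a call in any comparison included MVD, which decarboxylates mevalonate diphosphate (2.62 to 6.33 CPM), NSDHL of sterol demethylation (2.88 to 8.34), the isomerase EBP (4.63 to 8.23), the reductases TM7SF2 (4.50 to 10.8) and DHCR7 (10.8 to 24.3), LSS (1.46 to 4.78) and IDI1 (24.2 to 39.9 CPM). The lowest value of NSDHL, TM7SF2, LSS and DHCR7 was that of HTO replicate 1 at 10 dpf.

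Among 24 other tested genes of sterol handling, 0 were called at 7 dpf by edgeR and by DESeq2, with 1 higher and 3 lower at an unadjusted p under 0.05. At 10 dpf 2 were lower in HTO larvae (8.33%, against 7.02% of all genes). NPC2 (ENSDARG00000090912), which carries cholesterol out of lysosomes, fell from 80.6, 72.8 and 70.2 to 48.7, 55.4 and 62.4 CPM (-0.42, SE 0.10, edgeR adjusted p = 0.0195). STARD3 (ENSDARG00000017809), an endosomal sterol transfer protein, fell from 24.6, 24.5 and 25.1 to 20.5, 20.8 and 20.5 CPM (-0.26, SE 0.07, edgeR adjusted p = 0.0269). Neither overlapped between the groups. The call of NPC2 was lost without control replicate 1 or HTO replicate 1 or 2 at 10 dpf (adjusted p up to 0.0957), and that of STARD3 without any 1 of the 6 libraries at that age (up to 0.0882). With age in controls 4 rose (16.7%) and 3 fell (12.5%), near the 14.3% and 15.0% of all genes. The risers were MYLIP (ENSDARG00000008859; 0.65), a ligase that degrades the LDL receptor, the cholesterol exporters ABCA1 (ENSDARG00000074635; 0.55) and ABCG1 (0.46), and STARD3 (0.21). The cholesterol absorption gene NPC1L1 fell by 1.27 on the log2 scale. In HTO larvae MYLIP, ABCG1 and ABCA1 rose with age (0.68, 0.61 and 0.31) and 2 fell, among them abca1b (-0.78), so 12.5% rose and 8.33% fell where 10.8% and 12.4% of all genes did. All 5 calls held without any 1 library, as did those of MYLIP, ABCA1 and ABCG1 in controls. In controls STARD3 was lost without replicate 2 or 3 at 7 dpf or any 1 replicate at 10 dpf, and NPC1L1 without replicate 3 at 7 dpf or any 1 at 10 dpf.

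Of 35 other tested lipogenic genes, 0 were called at 7 dpf by edgeR and by DESeq2, with 3 higher and 1 lower at an unadjusted p under 0.05, and 2 rose and 2 fell at 10 dpf in HTO larvae (5.71% each, against 4.77% and 7.02% of all genes). ELOVL4 (ENSDARG00000027495), an elongase of very long chains, rose from 3.43, 4.83 and 4.30 to 8.62, 5.98 and 7.84 CPM (0.83, SE 0.16, edgeR adjusted p = 0.00734), and TECR (ENSDARG00000101585), the reductase of the elongation cycle, by 0.50. Of those that were lower, pparg, a regulator of fat storage, fell from 26.4, 23.5 and 29.0 to 14.3, 20.8 and 21.3 CPM (-0.48, edgeR adjusted p = 0.0397). The call of ELOVL4 held without any 1 library. TECR was lost in 10 of the 12 fits that leave out 1 library, all but those without control replicate 1 at 7 dpf or 2 at 10 dpf. The call of pparg was lost without control replicate 2 or any 1 HTO library at 7 dpf, control replicate 1 or 3 at 10 dpf or HTO replicate 1 at 10 dpf. With age in controls 1 of the 35 rose (2.86%) and 9 fell (25.7%), where 14.3% of all genes rose and 15.0% fell, with a median of -0.20. In HTO larvae 0 rose by edgeR and by DESeq2 (1 at an unadjusted p under 0.05) and 9 fell (25.7%), where 10.8% of all genes rose and 12.4% fell, with a median of -0.26. HACD1, a dehydratase of the elongation cycle, fell by 1.07 on the log2 scale in both, and ELOVL4 (ENSDARG00000027495) by 1.51 in controls and 1.02 in HTO larvae.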

How the data were processed

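The deposited values are raw counts of reads on each gene. The submitters' processing notes name STAR and the build GRCz11; the STAR version and gene annotation were not given in the sources used here. Per the labels, libraries came from a stranded mRNA kit read from both ends. Of the deposited columns, the one counting the strand complementary to read 1 was analysed; the other strand held 2.24 to 2.55% of reads on genes. Lines that name no gene were left out, which left 65.5 to 68.4% of reads. No libraries were identical. Depth limits precision most for genes under 1 CPM, and to a lesser degree for genes of a few CPM, above all in the shallowest library.

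Genes were filtered with filterByExpr (minimum count 10, minimum total 15) and scaled with TMM. edgeR's robust quasi-likelihood test was fitted on all 12 libraries with 1 mean per group, two-sided, with Benjamini-Hochberg adjusted p under 0.05 over all 23075 genes as the call. Each SE is the size of the log2 fold change divided by the square root of the F value of that test. CPM use TMM-scaled library sizes, and log2 CPM a prior count of 2. The members and lists were chosen with earlier results of these data known. Named genes are members, with values per library for those that passed, and up to 8 genes of each other list with the smallest p; some genes that the counts include are not reported here by name. The labels do not say whether replicate numbers pair the samples. Same-numbered deviations from group means correlated at -0.20 to 0.22 across genes, and different-numbered ones at -0.28 to 0.25. With age in controls the same-numbered values were 0.22, 0.04 and 0.18, against -0.24 to 0.04 for the others. Symbols shared by copies are given with their gene ID; reads of near-identical copies may be split between them. Alternatives were RLE and upper quartile scaling, no filter, a filter of 1 CPM in 3 libraries, a replicate block, unstranded counts, DESeq2, the compared groups alone and leaving out each library. Methods were checked on simulated data. Software was edgeR 4.0.16, DESeq2 1.42.0 and limma 3.58.1 in R 4.3.3, with figures by matplotlib 3.10.9.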

Additional observations from a re-analysis of the deposited data

Results flagged for a closer look

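fasn2 moved in opposite directions with age: every control library at 10 dpf lay below every one at 7 dpf (-0.81), and every HTO library lay above (0.82). The test of the difference gave 1.62 on the log2 scale with an edgeR adjusted p of 0.0878, so it failed the correction.

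NR1H3 lay higher in every HTO library than in every control at 7 dpf (0.09) and lower in every one at 10 dpf (-0.18). The groups nearly touched at 7 dpf, with 63.1 CPM in HTO replicate 1 and 63.0 CPM in control replicate 2. At 10 dpf the nearest were HTO replicate 3 at 75.9 CPM and control replicate 1 at 78.5 CPM. The test of the difference gave -0.27 with an edgeR adjusted p of 0.358, which failed the correction too.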

How the results depend on the processing

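Over 20 counts and medians of both arms, 360 of 396 recomputed values stayed within the spread or within 1.5 times the count. Outside the fits that leave out a library, 149 of 156 did. The spread, taken from arm levels between replicates, exceeded several of the medians in size. A median could thus change sign and still count as within it, and a count that stayed at 0 always did. These totals therefore do not show that the medians kept their sign. No called gene reversed its sign, and 11 of 29 calls held under every alternative: HMGCS1, SQLE (ENSDARG00000079946), NR1H3, ACACB, ELOVL6, ACLY (ENSDARG00000055652), GPAM and SCD with age in controls, and ACACB, ACLY (ENSDARG00000055652) and SCD with age in HTO larvae. For the difference of exposure effects DESeq2 called 1 fatty acid gene in place of 0. For age in controls the groups fitted alone called 14 sterol genes in place of 8. For age in HTO larvae sterol calls fell from 4 to 2 with upper quartile scaling, without a filter and with the 1 CPM filter, and to 0 with the groups fitted alone; the causes were not tested. With the replicate block, the sterol count in HTO larvae was 0 and SCAP lost its call with age in controls. Whether the replicate numbers pair the samples is not known, so no conclusion is drawn from these losses.

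Leaving out 1 library gave 0 to 2 fatty acid calls at 7 dpf, 0 to 1 sterol and 0 to 2 fatty acid calls at 10 dpf, and 0 to 1 fatty acid calls for the difference. With age it gave 2 to 15 sterol calls in controls, and 0 to 8 sterol and 4 to 10 fatty acid calls in HTO larvae. The fatty acid median ranged from -0.10 to 0.04 at 10 dpf and from -0.13 to 0.01 with age in HTO larvae. PMVK, mlxipl and SQLE (ENSDARG00000063319), with means under 1 CPM, are limited most by depth.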
